A study of Homo sapiens with 2 samples.

Results

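Long intergenic non-coding RNAs with a LINC number were examined in RNA-seq of H1-derived Stage 6 cells, the last stage of a pancreatic differentiation protocol. H1 is an established human embryonic stem cell line, and Stage 6 cultures are a mixture that contains insulin-expressing cells. The live sample was unfixed, and its RNA was isolated with the RNeasy kit. For the processed sample, cells were fixed with 4% paraformaldehyde, permeabilized, stained with antibodies and run through a cell sorter without gating any out, and RNA was isolated with a modified RecoverAll kit. Each condition has 1 library, so no difference between them has a replicate check and no test between conditions was possible. Polyadenylated RNA was sequenced. The comparison asks whether fixation, staining and sorting changed the representation of RNAs, and the effects of these steps, of the RNA kit and of any difference between cultures cannot be told apart. Values are FPKM, the fragments of a gene scaled to its transcript length and to library size, with the lower and upper bound that the authors' software gave for each gene in each library.

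The files list 318 genes whose name is LINC followed by digits alone, of 55749 genes in all. Members were selected on the FPKM values of these same libraries, at 1 FPKM or more in either, which gave 55 genes, 17.3% of the LINC genes. Across all genes, 31.0% reached this level. LINC00106 is listed at both of its pseudoautosomal copies with the same values and was counted once. Just inside the threshold were LINC00618 (1.005 FPKM in live and 0 in processed cells), LINC00638 (1.02 and 0.538 FPKM) and LINC00240 (1.06 and 0.193 FPKM). Just outside it were LINC00310 (0.156 and 0.874 FPKM), LINC00599 (0.457 and 0.845 FPKM) and LINC00577 (0.782 and 0 FPKM). Of the 55 members, 37 reached 1 FPKM in both samples, 14 in live cells only and 4 in processed cells only.

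LINC is a naming scheme and not a family. A LINC number was given to a gene between protein-coding genes whose spliced, polyadenylated transcript seemed to have no open reading frame. Some of these RNAs act in the nucleus on the genes beside them, some bind proteins in the cytoplasm, some are the precursors of microRNAs, and some were later found to encode small proteins. They are mostly expressed at lower levels than mRNAs and in fewer cell types. In endoderm, the best known is LINC00261, which is transcribed beside the pioneer transcription factor FOXA2.

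Pancreatic markers were present in both libraries, at levels that do not tell which library is which. INS had 98.3 FPKM in live and 121 in processed cells, and PDX1 had 66.5 and 72.1 FPKM. Marker lists of the islet endocrine (6 genes), pancreatic progenitor (4), foregut and gut (3), liver (3) and mesenchymal (3) lineages were all above 1 FPKM and none of these genes differed more than 2-fold. Of 3 pluripotency markers, POU5F1 was at 7.92 and 8.53 FPKM, LIN28B at 16.6 and 9.58 FPKM, and NANOG at 1.27 and 7.34 FPKM. In a bulk culture, fewer cells of a type and less RNA per cell cannot be told apart. Among single-transcript genes, the lowest FPKM values fell on steps of 1 fragment, and the step in processed cells was 1.07 times that in live cells, so the libraries had similar depth. Read as 2 square roots of the fragment number on either side, the bounds of such genes gave a median of 0.991 times the fragments that the step gave in live cells. By that reading LINC00261 rests on about 43400 fragments in live cells and LINC00618, near the threshold, on about 12.8. For LINC00478, which has many transcripts, the bounds in live cells correspond to 21.0 fragments and the step to about 4720, so its bounds were far wider than fragment counting alone would give. No bound covers the spread between libraries.

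What the members are at the level of sequence differs. LINC00657, now named NORAD, is a cytoplasmic RNA of a single exon that binds Pumilio proteins, which recognise TGTANATA. Its annotated transcript of 5401 nt holds 15 matches to TGTANATA on the sense strand. Of 4994 lncRNA genes with a transcript of at least 1 kb, 4 hold as many, this gene included, and 19.9% hold at least 1. Among 46 members of that length, 9 (19.6%) hold a match, and none of the others has more than 2. The stretch of LINC00657 with 3 matches, in capitals, shows how the letters recur (GRCh37, minus strand, chr20:34637425-34637664).
LINC00657: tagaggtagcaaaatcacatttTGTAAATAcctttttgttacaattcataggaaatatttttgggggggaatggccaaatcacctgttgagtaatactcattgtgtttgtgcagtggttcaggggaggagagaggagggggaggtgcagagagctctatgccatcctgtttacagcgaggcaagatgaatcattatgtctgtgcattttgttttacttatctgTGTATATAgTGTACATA

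By contrast, 9 of the 55 members are protein-coding in GENCODE 44, a later annotation matched by Ensembl identifier. LINC00493 is now SMIM26 and LINC00116 is now MTLN, both small proteins of mitochondria. Their coding sequences are printed because they show that the LINC name can cover an mRNA; the start and stop codons are in capitals. That of LINC00493 has 95 codons before the stop and lies on 2 exons (GRCh37, plus strand, chr20:18548123-18550049), and that of LINC00116 has 56 codons on 1 exon (minus strand, chr2:110969932-110970102).
LINC00493: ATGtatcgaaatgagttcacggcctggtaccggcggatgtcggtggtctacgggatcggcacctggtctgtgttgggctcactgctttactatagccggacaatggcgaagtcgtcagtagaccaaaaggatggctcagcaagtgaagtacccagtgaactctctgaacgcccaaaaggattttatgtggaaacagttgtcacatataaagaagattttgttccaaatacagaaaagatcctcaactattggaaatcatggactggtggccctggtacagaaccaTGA
LINC00116: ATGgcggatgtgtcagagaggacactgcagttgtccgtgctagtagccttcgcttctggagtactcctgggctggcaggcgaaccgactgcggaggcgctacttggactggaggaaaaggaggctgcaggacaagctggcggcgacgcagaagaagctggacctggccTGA

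Other members are host genes. LINC00478, now MIR99AHG, spans 3 microRNA genes on chromosome 21, and LINC00472 spans 2 of the miR-30 family on chromosome 6. The mature microRNAs are shown, from RefSeq on GRCh38.p14, with the seed (bases 2 to 8) in capitals. The 2 from LINC00472 share their seed, and the 3 from LINC00478 have a different seed each.
hsa-let-7c-5p (LINC00478): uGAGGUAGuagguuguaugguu
hsa-miR-99a-5p (LINC00478): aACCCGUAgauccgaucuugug
hsa-miR-125b-5p (LINC00478): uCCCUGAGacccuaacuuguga
hsa-miR-30a-5p (LINC00472): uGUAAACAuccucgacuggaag
hsa-miR-30c-5p (LINC00472): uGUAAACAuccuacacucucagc
The files list all 5 microRNA genes at 0 FPKM in both samples with the status LOWDATA, so the values below are those of the long host RNA and not of mature microRNAs.

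Expression of the LINC genes was concentrated in few members. The summed FPKM of the 55 genes was 435.9 in live and 456.0 in processed cells, 0.0854% and 0.0914% of the total. The 5 highest genes held 57.3% of the LINC sum in live cells and 53.7% in processed cells. Median FPKM of the members was 3.16 in live and 2.37 in processed cells, and 15 members reached 10 FPKM in either. The order of levels was largely kept, with a Spearman rho of 0.81 over the 55 members between these libraries, given as a description, since the points share libraries.

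**Figure D1:**
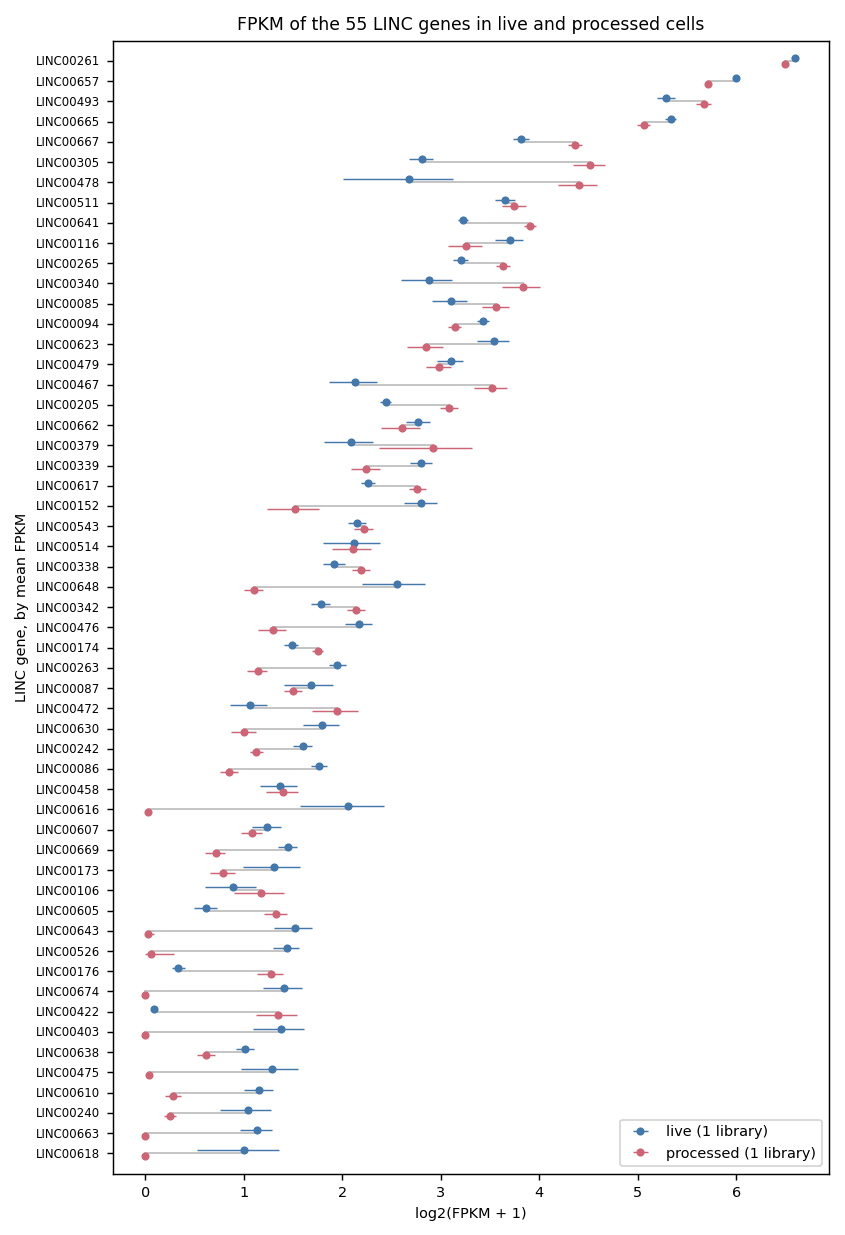
FPKM of the 55 LINC genes on a log2(FPKM + 1) axis, in live (blue) and processed cells (red), ordered by mean FPKM; bars are the authors' lower and upper bounds within 1 library and not replicate error. LINC00261 is the highest in both libraries, and the long grey lines at the bottom belong mostly to genes near 0 in processed cells.

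LINC00261 (ENSG00000259974.1, chromosome 20, 22541191 to 22559280, minus strand, 4 exons in the longest transcript) had the highest FPKM of the members in both libraries. It was at 96.2 FPKM (bounds 95.3 to 97.1) in live and at 89.2 FPKM (88.3 to 90.1) in processed cells, a log2 ratio of -0.11. The FOXA2 gene lies 2363 nt away and had 60.8 and 55.1 FPKM, a log2 ratio of -0.14. Both values lay close to the median log2 ratio of all expressed genes, -0.09, and neither pair of bounds overlapped.

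The second of the members was LINC00657 (chromosome 20, 34633544 to 34638882), at 63.0 FPKM in live cells (62.3 to 63.7) and 51.5 in processed cells (50.9 to 52.2), a log2 ratio of -0.29. LINC00665 (chromosome 19, 36803969 to 36822620) had 39.3 FPKM in live and 32.4 in processed cells, a log2 ratio of -0.27. LINC00493 was higher in processed cells, at 38.1 FPKM (35.7 to 40.5) in live and 49.95 (47.2 to 52.7) in processed cells, a log2 ratio of 0.38. LINC00493 and LINC00665 thus changed places in the order. None of the 4 members with a mean above 30 FPKM differed more than 2-fold, and 2.03% of all genes at that level did.

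The middle of the order, from 5 to 20 FPKM, held genes of different kinds. LINC00667 stayed within 2-fold, going from 13.1 to 19.6 FPKM, and LINC00641, 2236 nt from HNRNPC on chromosome 14, from 8.35 to 14.02 FPKM. LINC00511 had 11.6 FPKM (10.7 to 12.5) and 12.4 FPKM (11.3 to 13.6), with overlapping bounds. LINC00116 had 12.01 FPKM (10.7 to 13.3) in live and 8.58 (7.43 to 9.73) in processed cells, a log2 ratio of -0.44. Thus the 2 best expressed members that encode mitochondrial small proteins, LINC00493 and LINC00116, moved in opposite directions, both by less than 2-fold.

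Relative to live cells, 4 members (7.27%) were higher by more than 2-fold on the log2((processed FPKM + 1) / (live FPKM + 1)) scale, and 10 (18.2%) were lower by as much. At low FPKM the added 1 makes such a ratio smaller than the ratio of the FPKM values. Among all 17309 genes that reached 1 FPKM in either sample, 6.56% were higher by this measure and 6.19% were lower. The rule used the same contrast, so these counts are a description, and 8 of the 10 lower members passed it in live cells only. Of the 37 members that reached 1 FPKM in both samples, 3 were higher and 2 lower, LINC00152 and LINC00648. The median log2 ratio of all 55 members was -0.16 (quartiles -0.80 and 0.44), beside -0.09 (-0.39 and 0.25) for all 17309 genes. With a minimum of 3 FPKM, 30 members remained, of which 3 were higher and 3 lower, and their median log2 ratio was 0.08. Over all 13587 genes at that minimum, 5.32% were higher and 3.78% lower, with a median of -0.09.

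Members spread more widely than all genes, with a median absolute log2 ratio of 0.68 beside 0.34, and 0.29 for protein-coding genes. Other expressed lncRNA genes (1339 in GENCODE 44) had 0.77. Taken over all levels, their balance was the reverse of that of the LINC genes. Of the other lncRNA genes, 335 were past 2-fold upward and 196 (14.6%) downward, with a median log2 ratio of 0.28. With a mean below 1 FPKM, where 7 of the 10 lower members lie, they leaned lower too, with 78 higher and 102 lower. In every bin above it, more of them were higher than lower. The 37 members at 1 FPKM or more in both samples showed no lean to lower values, with 3 higher and 2 lower. Whether the contrast over all levels exceeds what repeated libraries would give was not tested. Among LINC genes, other lncRNA genes and all genes alike, the median absolute log2 ratio was larger below 1 FPKM than above 30 FPKM. Mean FPKM had a median of 2.93 for members, 8.38 for all genes and 10.8 for protein-coding genes. In bins split at 1, 3, 10 and 30 FPKM, the median absolute log2 ratio of members was 1.19, 0.61, 0.50, 0.62 and 0.28. For all genes it was 0.96, 0.52, 0.38, 0.27 and 0.18. Of 12 members with a mean below 1 FPKM, 1 was higher and 7 were lower, and of all 1166 genes in that bin 16.3% and 29.8%. Of 16 members from 1 to 3 FPKM, 0 were higher and 1 was lower, where 467 of all 3427 genes were higher and 376 lower. Past 2-fold in this bin were thus 6.25% of members and 24.6% of all genes. Of 17 members from 3 to 10 FPKM, 1 was higher and 2 were lower, where the shares of all genes were 6.69% and 4.82%. Of 6 members from 10 to 30 FPKM, 2 were higher and none lower, where 2.23% of all genes and 28.6% of other lncRNA genes were higher. Bins with so few members give counts and no rate.

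**Figure D2:**
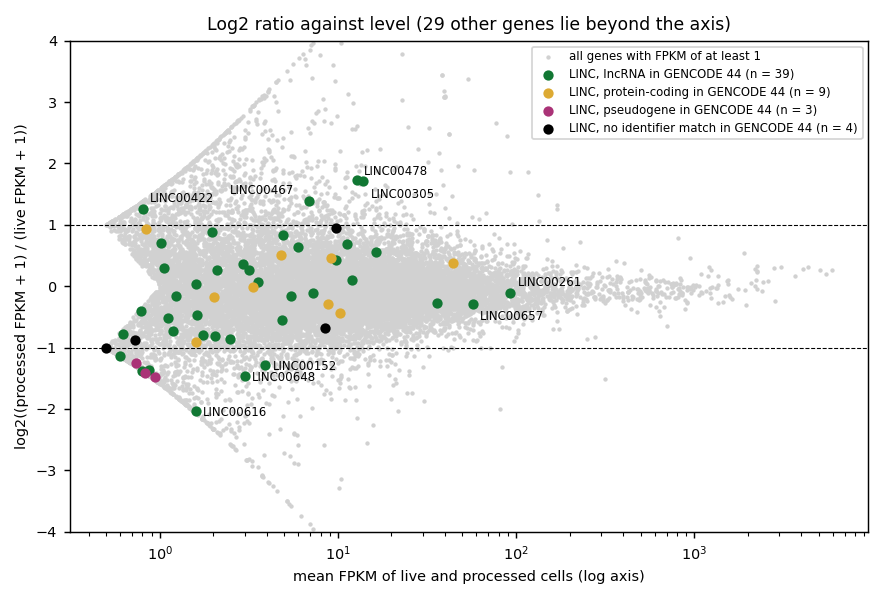
Log2 ratio of processed to live FPKM (pseudocount 1) against mean FPKM on a log axis, for all 17309 expressed genes (grey) and the 55 LINC genes, coloured by their class in GENCODE 44; dashed lines mark 2-fold. The 3 members called pseudogenes lie below the lower line, the 9 called protein-coding lie between the lines, and LINC00478 and LINC00305 lie highest.

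**Figure D3:**
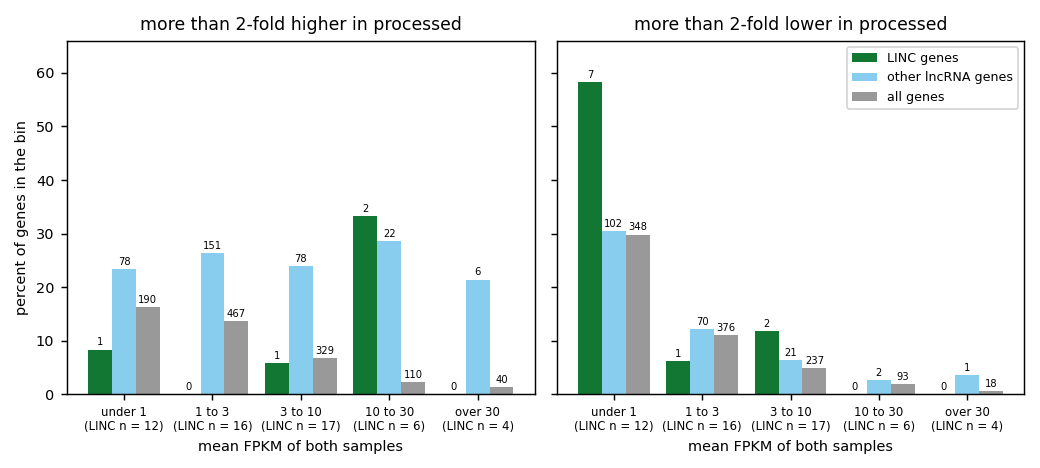
Percent of genes more than 2-fold higher (left) or lower (right) in processed cells by bin of mean FPKM, for LINC genes, other lncRNA genes and all genes; the number above each bar is the count of genes. The LINC genes below 1 FPKM hold 7 of the 10 lower members.

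On the log2 scale with 1 added, LINC00478 had the highest ratio of the members; by the FPKM values themselves, or with 0.1 added, LINC00422 and LINC00176 had higher ratios. The gene, the host of let-7c, miR-99a and miR-125b-2 (ENSG00000215386.5, chromosome 21, 17442842 to 17982094, plus strand), had 5.38 FPKM in live cells with wide bounds of 3.03 to 7.73, and 20.1 FPKM in processed cells with bounds of 17.2 to 23.0. Its FPKM was 3.74 times as high in processed cells, a log2 ratio of 1.73, and 1.06 if the upper live bound is set against the lower processed bound. GENCODE 44 gives this gene 258 transcripts. The other host of the list with at least 1 FPKM, LINC00338 (now SNHG20, chromosome 17), had 2.79 FPKM in live and 3.56 in processed cells, a log2 ratio of 0.27. The small Cajal body RNA inside it, SCARNA16, was at 3.10 FPKM in live cells and listed at 0 in processed cells, with the status LOWDATA in both. LINC00472, with the miR-30 genes, had 1.09 FPKM (0.815 to 1.36) in live and 2.85 (2.23 to 3.47) in processed cells, a log2 ratio of 0.88. LINC00669 (now MIR924HG, chromosome 18), with MIR5583-1 inside it, was lower in processed cells, at 1.73 FPKM (1.55 to 1.91) in live and 0.641 (0.527 to 0.755) in processed cells, a log2 ratio of -0.74. LINC00338 lies within SEC14L1 on the same strand, which had 31.4 FPKM in live and 34.0 in processed cells. LINC00669 spans the pseudogene RPL7AP66 on the same strand, at 40.1 and 37.9 FPKM. How fragments were divided between these overlapping genes was not tested. Of the 4 hosts, 3 were thus higher and 1 lower in processed cells, with LINC00478 past 2-fold on the scale with 1 added. On the same list, LINC00461 (0.0311 FPKM in live cells) was below the threshold, as was LINC00599, and LINC00632 has no row by that name. Of the widely expressed LINC RNAs with known roles, LINC00473 was the only measured gene under the threshold, at 0.0677 FPKM in live cells and listed at 0 in processed cells.

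LINC00305 (chromosome 18, 61747243 to 61816264, minus strand) rose to a similar extent, from 6.00 (5.40 to 6.59) to 21.9 FPKM (19.3 to 24.4), which is a log2 ratio of 1.71. No other gene with at least 1 FPKM overlaps it, and the nearest such protein-coding gene, SERPINB8, is 74965 nt away at 1.37 and 1.95 FPKM. LINC00467 (chromosome 1, 211556145 to 211605878, plus strand) rose from 3.37 (2.63 to 4.11) to 10.5 FPKM (9.15 to 11.8), which is a log2 ratio of 1.39. Within it and on the same strand lies the pseudogene SNX25P1, which went from 0.919 to 2.74 FPKM. The neighbour TRAF5, 7857 nt away, had 3.56 and 3.05 FPKM. LINC00422 (now LINC00539, chromosome 13, 21877651 to 21922860) was at 0.0612 FPKM in live and 1.54 in processed cells, a log2 ratio of 1.26. Its neighbour ZDHHC20, a palmitoyltransferase gene 27403 nt away, fell from 34.6 to 16.6 FPKM, and 8.32% of the 80-nt windows of LINC00422 occur exactly in a transcript of another gene, ZDHHC20 among them. For all 4 rises the bounds of live and processed cells did not overlap.

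On the log2 scale with 1 added, the lowest ratio was that of LINC00616 (ENSG00000248307.1, chromosome 4, 138948576 to 139051863, minus strand). Its FPKM was 3.16 in live cells (1.97 to 4.35) and 0.0199 in processed cells (0.0170 to 0.0228), a log2 ratio of -2.03. The value in processed cells corresponds to about 3.42 fragments on its longest annotated transcript, whereas bounds as narrow as those deposited would need about 189. The bounds of LINC00616 in processed cells were thus tighter than counting allows, while those of LINC00643 (0 to 0.0657) and LINC00526 (0 to 0.225) were wider. The count of members with separate bounds includes all 3 genes. The neighbour SLC7A11, 33388 nt away, had 4.61 and 4.801 FPKM.

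LINC00648 (chromosome 14, 48234157 to 48264295) was a lower member that stayed above 1 FPKM in both libraries, with 4.89 FPKM (3.59 to 6.18) in live and 1.14 (1.005 to 1.28) in processed cells, 4.27 times lower. LINC00152, now CYTOR, named for a role in the cytoskeleton (ENSG00000222041.5, chromosome 2, 87754887 to 87906324, plus strand), was the other. It went from 5.97 (5.17 to 6.77) to 1.87 FPKM (1.35 to 2.39), 3.19 times lower and a log2 ratio of -1.28. LINC00152 has a near-identical copy on the same chromosome, MIR4435-2HG, listed in the files as AC068491.1 (111965353 to 112252677). Of its 80-nt transcript windows, the length of a read, 44.2% occur exactly in a transcript of another gene. The best aligned exon pair within both loci matched over 6497 positions at 99.1% identity. An aligned stretch of both genes is printed with the differing base in capitals, because it shows how little separates the fragments of LINC00152 from those of its copy (GRCh37, chr2:87882898-87883017 on the plus strand and chr2:112124912-112125031 on the minus strand).
LINC00152: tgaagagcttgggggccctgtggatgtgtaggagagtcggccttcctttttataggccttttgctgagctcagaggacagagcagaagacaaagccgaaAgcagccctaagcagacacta
MIR4435-2HG: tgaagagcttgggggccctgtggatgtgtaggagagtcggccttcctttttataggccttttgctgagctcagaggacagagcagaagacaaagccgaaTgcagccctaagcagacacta
The copy had 4.14 FPKM (3.30 to 4.98) in live and 3.53 (2.88 to 4.18) in processed cells, with overlapping bounds. Summed over both, FPKM went from 10.1 to 5.40. The fall of LINC00152 is uncertain to the extent that fragments were divided between the copies.

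The remaining 7 lower members lay between 1.005 and 1.86 FPKM in live cells. LINC00403 (now SOX1-OT, chromosome 13) had 1.60 FPKM (1.14 to 2.06) in live cells and was listed at 0 in processed cells. SOX1, a neural transcription factor gene 35413 nt away, had 3.97 and 2.95 FPKM. Also listed at 0 in processed cells were LINC00674 (1.66 FPKM in live cells, 1.30 to 2.02) and LINC00618 (1.005 FPKM, 0.443 to 1.57). LINC00663 was at 1.20 FPKM before and at 3.66e-42 FPKM after processing, which is 0 in practice. LINC00643 (1.86 and 0.0196 FPKM), LINC00475 (1.45 and 0.0280 FPKM) and LINC00526 (1.70 and 0.0440 FPKM) were near 0 in processed cells. No member was at 0 in live cells, while 3 were at 0 in processed cells. An exact 0 in such files can be a failed estimate, although the status of these 3 genes was OK in both samples.

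Sequence shared with other genes was examined at a cut of 10% of windows, chosen after the values were seen. Sharing was not computed for all genes, so no background share is given. Of the 51 members with an annotated transcript, 13 share over 10% of their 80-nt windows with a transcript of another gene, copies and overlapping genes alike. Of these 13, 6 were more than 2-fold lower and none higher. All of the 6 but LINC00152 had passed the rule of 1 FPKM in live cells only. The other 38 members held 3 that were lower and 4 that were higher, with a median log2 ratio of 0.08. All 134 windows of LINC00475 were shared, 38.6% of those of LINC00526, 27 of 81 (33.3%) of LINC00674, 24.4% of LINC00663 and 17.8% of LINC00643. The 13 also hold members within 2-fold on the scale with 1 added. These are LINC00339 (32.9%), LINC00242 (30.5%), LINC00094 (19.5%), LINC00657 (18.3%), LINC00667 (16.6%), LINC00240 (13.9%) and LINC00665 (13.6%). The only annotated transcripts of LINC00475 and LINC00674 are short, at 213 and 160 nt. Windows and the genes that share them come from GENCODE 44, so some may be absent from the annotation that the authors used. GENCODE 44 calls LINC00475, LINC00674 and LINC00643 pseudogenes, and all 3 were lower. Each of the 3 had passed the rule in live cells only. Of 1672 other expressed pseudogenes, 12.9% were more than 2-fold higher and 16.6% lower. The part of shared sequence in these falls was not tested.

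LINC00526 lies inside LINC00667 on the opposite strand of chromosome 18 (5236723 to 5238597 within 5232875 to 5246507). LINC00526 fell from 1.70 to 0.0440 FPKM while LINC00667 went from 13.1 to 19.6 FPKM. Whether fragments were counted by strand is not stated in the sources used here, so fragments of this antisense pair cannot be told apart. Over all members, 11 overlap another gene with at least 1 FPKM, and their median absolute log2 ratio was 0.74, beside 0.60 for the 44 that overlap none. Of those 44, 3 (6.82%) were more than 2-fold higher and 9 (20.5%) lower, beside 6.56% and 6.19% of all 17309 genes. All of these 9 but LINC00152 and LINC00648 had passed the rule in live cells only.

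Among the 9 members that GENCODE 44 calls protein-coding, none was past 2-fold on the scale with 1 added, where log2 ratios ran from -0.91 to 0.94 with a median of -0.02. Of 13564 other expressed protein-coding genes, 3.15% were higher and 3.53% lower by that measure. None among 9 genes is near those shares and does not set these members apart. LINC00086 and LINC00087, the pair of SMIM10L2 genes on chromosome X, had 2.40 and 0.807 FPKM, and 2.21 and 1.84 FPKM, in live and processed cells. Without the added 1, the FPKM of LINC00086 was 2.98 times lower in processed cells. LINC00094 (now BRD3OS), 152 nt from BRD3, went from 9.79 to 7.85 FPKM, a log2 ratio of -0.29, while BRD3 went from 28.5 to 37.8 FPKM. LINC00085 (now SPACA6) had 7.59 and 10.8 FPKM. LINC00514 (now GREP1), with 3.36 FPKM (2.51 to 4.22) and 3.31 FPKM (2.71 to 3.91), was nearly equal in both. LINC00176 (now C20orf204) had 0.262 and 1.42 FPKM, 5.41 times higher without the added 1, and ZNF512B, which overlaps it on the other strand, had 15.2 and 16.2 FPKM. On the list of LINC names later given to small proteins, LINC00998, LINC00961 and LINC00948 have no row by those names.

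Of the endoderm and pluripotency LINC RNAs, 3 of 4 measured reached the threshold and none was past 2-fold. Beside LINC00261, LINC00617 (now TUNAR, known from pluripotent and neural cells, chromosome 14) had 3.80 FPKM (3.58 to 4.03) in live and 5.79 (5.39 to 6.20) in processed cells, a log2 ratio of 0.50. LINC00458 (chromosome 13), known from embryonic stem cells, had 1.57 FPKM (1.25 to 1.90) and 1.63 FPKM (1.34 to 1.92), with overlapping bounds. LINC00545 was listed at 0 in both samples, and LINC00678 has no row by that name. LINC00458 thus stayed near 1.6 FPKM in both libraries. The pluripotency markers given above did not move together. POU5F1 had overlapping bounds, LIN28B was lower and NANOG was higher in the processed library.

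LINC00543 lies on chromosome 13 (28527663 to 28529507), 6319 nt from the intestinal transcription factor gene CDX2. It had 3.45 FPKM (3.16 to 3.73) in live and 3.66 (3.36 to 3.97) in processed cells, with overlapping bounds, while CDX2 went from 14.1 to 20.9 FPKM. LINC00263 (now OLMALINC), 8781 nt from SCD, the stearoyl-CoA desaturase gene, had 2.87 FPKM in live and 1.21 in processed cells, and SCD had 150.7 and 111.1 FPKM. LINC00476 overlaps the head of ERCC6L2 on the opposite strand, and both were lower in processed cells, at 3.49 and 1.46 FPKM for LINC00476 and 14.8 and 8.42 FPKM for ERCC6L2. LINC00339, near CDC42, had 5.98 and 3.74 FPKM, and CDC42 had 129.1 and 112.7 FPKM.

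Across the 55 members, the nearest expressed protein-coding gene lay a median of 25890 nt away, and 21 lay within 10 kb. Of these neighbours 2 differed more than 2-fold, ZDHHC20 and EPB41L1, the neighbour of LINC00657, which went from 21.3 to 8.99 FPKM. The log2 ratios of members and neighbours had a Spearman rho of -0.05, given as a description over 55 pairs that share libraries. ZFP161 is the neighbour of both LINC00667 and LINC00526. Of all expressed protein-coding genes, 3.15% were more than 2-fold higher and 3.53% lower.

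**Figure D4:**
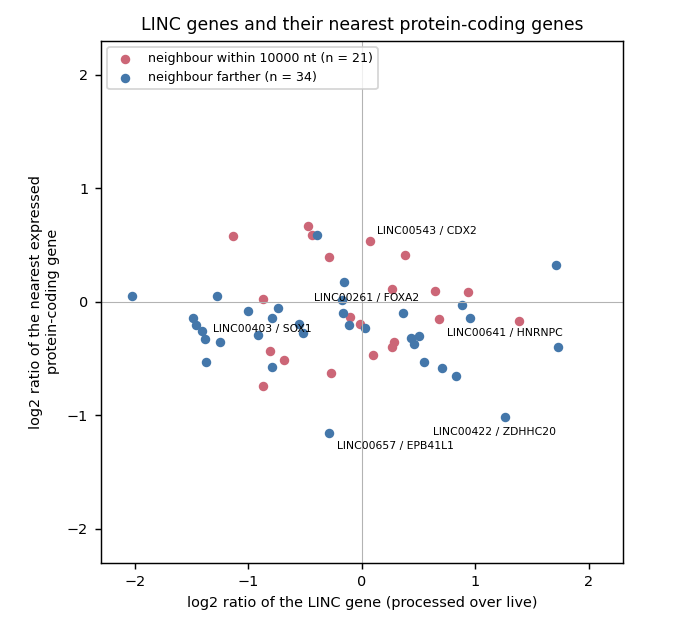
Log2 ratio of each LINC gene (horizontal) against that of its nearest expressed protein-coding gene (vertical), coloured by whether the neighbour lies within 10 kb (21 pairs) or farther. LINC genes run from -2.03 to 1.73, and 2 of the 55 neighbours lie beyond 2-fold.

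On the scale with 1 added, the other members lay within the 2-fold lines. By the FPKM values themselves, LINC00610 was 5.63 times and LINC00630 2.46 times lower in processed cells, and LINC00605 was 2.83 times higher. LINC00340 and LINC00379 (higher) and LINC00173 (lower) were also past 2-fold by those values. LINC00340, also known as CASC15, came closest to the upper line, from 6.36 (5.07 to 7.65) to 13.2 FPKM (11.4 to 15.1), which is a log2 ratio of 0.95. LINC00379 went from 3.25 to 6.57 FPKM, LINC00605 from 0.533 to 1.51 FPKM, LINC00205 from 4.44 to 7.50 FPKM and LINC00265 from 8.22 to 11.4 FPKM. LINC00342, LINC00174 and LINC00106 had smaller positive log2 ratios, of 0.36, 0.27 and 0.29. Lower in processed cells were LINC00623 (10.6 and 6.22 FPKM), LINC00630 (2.47 and 1.01 FPKM), LINC00610 (1.23 and 0.218 FPKM), LINC00242 (2.04 and 1.18 FPKM) and LINC00173 (1.48 and 0.733 FPKM). LINC00479, LINC00662 and LINC00607 had overlapping bounds and log2 ratios of -0.12, -0.16 and -0.15.

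The bounds of live and processed cells did not overlap for 46 of the 55 members (83.6%), 19 higher and 27 lower in processed cells, beside 71.8% of all 17309 genes. Other lncRNA genes had 79.6%. Of the 37 members at 1 FPKM or more in both samples, 29 (78.4%) had separate bounds. The rule used these same libraries, so the count is a description. In live cells, the bounds of the 51 members at 1 FPKM or more lay between 0.960% and 55.9% from the value, with a median of 12.3%. Such bounds describe each library alone. Log2 ratios of members were weakly related to the length of the longest transcript (Spearman rho 0.15 over 51 members), and absolute log2 ratios were smaller at higher mean FPKM (rho -0.35 over 55). Of 14 other well-known lncRNA genes measured for comparison, each at 1 FPKM or more in at least 1 sample, MALAT1 (40.6 and 94.2 FPKM) was past 2-fold on the scale with 1 added, and their median log2 ratio was -0.03. FTX (2.43 and 0.995 FPKM) was within 2-fold on that scale but not by the FPKM values themselves.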

How the data were processed

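RNA-seq of 1 live and 1 processed sample was analysed. Per the paper's methods and the submitters' processing notes, paired reads of 80 nt were aligned to GRCh37/hg19 with STAR (2.2.0c) guided by GENCODE, and the authors deposited FPKM values per gene with lower and upper bounds (Cufflinks, 2.0.2). The level of the bounds and the strand setting are not given in the sources used here. FPKM is already normalized, and no read counts were used.

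The files were joined by Ensembl identifier, 48 rows of second pseudoautosomal copies were dropped (43 of them equal to the first copy in both samples), and starts, counted from 0 in the files, were raised by 1. Log2 ratios used a pseudocount of 1. Gene class and transcripts came from GENCODE 44 mapped to GRCh37, which holds 94.6% of the identifiers. Exact 80-nt windows were matched on either strand. Scripts ran in Python (3.11.15) with pandas (2.3.3), scipy (1.17.1) and numpy (2.4.6), and the summaries were tested on simulated data. Only genes at 10 FPKM or more in live cells were changed in that simulation, so it does not cover changes at lower FPKM. With 1 sample per condition, no test was run. Members, gene lists and the rule for named genes were chosen with earlier results of these data known. The rule took the 10 highest members, up to 8 rises and 8 falls past 2-fold, the listed genes, genes at the threshold or at 0, and their neighbours. Other members were named after their values were seen, to account for all 55. Alternatives covered the pseudocount, the FPKM minimum, scaling, status, overlap and shared sequence.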

Additional observations from a re-analysis of the deposited data

Results flagged for a closer look

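LINC genes below 1 FPKM in both samples are outside the comparisons. Of these 263 genes, 9 were above 0 in processed cells and at 0 in live cells, at up to 0.293 FPKM, which drew attention because live cells serve as their background. In the opposite direction, 60 were above 0 in live cells only (median 0.0164 FPKM, highest 0.782 FPKM), and 58 were above 0 in both. Over all genes, 980 were above 0 only in processed and 5371 only in live cells. The part of depth or background in these values was not tested.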

How the results depend on the processing

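No paired analysis was possible because each condition has 1 sample. With a pseudocount of 0.1, 8 LINC genes were more than 2-fold higher and 17 lower, beside 9.89% and 10.1% of all genes, and the median absolute log2 ratio was 0.82. With a minimum of 3 FPKM, 30 genes were left, 3 of them lower, the median log2 ratio turned to 0.082, the median absolute log2 ratio was 0.48 and 25 genes had separate bounds, beside 5.32% higher and 3.78% lower over all genes. These 30 are fewer genes by construction. With all 182 LINC genes above 0, the median log2 ratio was -0.0076, the median absolute log2 ratio 0.0947 and 134 genes had separate bounds. Bounds of 0 to 0, as for LINC00473 in processed cells, count as separate from any lower bound above 0. The share of separate bounds over all genes was not computed for this setting or the minimum of 3 FPKM. Leaving out genes that share over 10% of their windows with another gene, an alternative chosen after seeing the data, left 4 lower genes and a median log2 ratio of 0.0504; the cause was not tested. The counts higher and lower stayed within 1.5 times under both rescalings (5 higher and 10 lower with the median ratio of 0.932, beside 7.5% and 5.63% of all genes), with status OK in both samples and without overlapping genes. Of 33 named genes, LINC00514 changed sign under either rescaling, and none past 2-fold came back within it. The share of summed FPKM without mitochondrial genes was 0.093% in live and 0.101% in processed cells. By the bounds in live cells, LINC00618, at 1.005 FPKM, rests on about 12.8 fragments and LINC00638, at 1.02 FPKM, on about 241. The part of depth in values near 1 FPKM was not tested.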
